A study of Mus musculus with 10 samples.

Results

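The histone genes are the 75 of 21437 gene names in the table that begin with Hist1h to Hist4h, H1f, H2af or H3f. They comprise 58 genes with clustered names (5 H1, 18 H2A, 11 H2B, 11 H3 and 13 H4) and 17 with variant names (4 H1, 7 H2A and 6 H3). The rule reads the names alone. The libraries were 2 each from MII oocytes (control), 2-cell control embryos, 2-cell Ago2 kd embryos, 4-cell control embryos and 4-cell Ago2 kd embryos. The oocytes came from superovulated ICR females of 7 weeks, 16 h after hCG, and the embryos from F1 females of 7 weeks crossed with F1 males, taken at 40 h (middle 2-cell) and 55 h (early 4-cell), although the labels give the strain of all of them as ICR. Ago2 kd denotes the Ago2-kd genotype in the labels, and per the methods of the study zygotes received siRNA against Ago2 and AGO2 antibodies, with scrambled siRNA as the negative control; the control libraries carry the genotype wild type, and the number of oocytes or embryos per library is not given in the sources used here. The knockdown is thus a transient one in cultured embryos, and Ago2 itself was not analysed here.

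Histones package DNA. H2A, H2B, H3 and H4 form the core of the nucleosome and H1 binds the linker DNA between cores. In somatic cells the clustered genes are transcribed in S phase, lack introns, and give mRNAs that end just after a conserved stem-loop instead of in a poly(A) tail. Variant genes are spread over the genome, are mostly polyadenylated and are transcribed through the cell cycle, so that variants such as H3.3 can be deposited without replication. The oocyte carries its own linker histone, H1foo, and a store of stem-loop binding protein (Slbp) with which it builds up clustered histone mRNA, and chromatin is repackaged with these stores after fertilization.

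The level reported is FPKM, a fragment count scaled by transcript length and by the size of the library, as the authors deposited it. The libraries summed to between 178681 and 458874 FPKM, and the table gives no read counts, so the depth behind each value is unknown. A value at or near 0 can be a failed estimate. Gapdh, which all cells use, stood at 0.168 FPKM or less in every library, and at exactly 0 only in 4-cell Ago2 kd replicate 2. A gene at exactly 0 is therefore described below as listed at 0, and values as low as those of Gapdh carry the same doubt. In the 2-cell Ago2 kd libraries, 193 of the 9917 genes above 0 in both (1.95%) had the same value to the last digit in both, against at most 1 gene in any other pair. None of these was a histone gene, and leaving them out changed no count of histone genes called. Lsm1 (1.55 FPKM), E2f2 (11.4) and Tcstv3 (134), whose calls are given below, had equal values in both 2-cell Ago2 kd libraries. These equal values enter the spread behind their p-values. Sums of stage markers were checked against the labels: 10 oocyte genes summed to 8508 and 10260 FPKM in the MII libraries and to 42 or less in each 4-cell library, 5 genes of 2-cell embryos had their highest sum in the 2-cell controls (627 and 721 FPKM), and Foxl2, the 1 of 10 cumulus and granulosa cell genes in the table, was listed at 0 throughout. Not each of the 5 followed that sum: Tcstv1 was higher in the MII than in the 2-cell control libraries, Tdpoz4 was highest among the controls at the 4-cell stage, and Zscan4d was above 0 in 2-cell control replicate 1 alone.

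All 75 names matched exactly 1 gene in GENCODE M21 (GRCm38). Of the clustered genes, 56 are annotated as protein-coding and 2 as pseudogenes, and of the variant names 12 are protein-coding genes, 4 are processed pseudogenes (H2afy3, H3f3a-ps1, H3f3a-ps2 and H3f3c) and 1 is an antisense gene (H3f3aos). To show which transcripts carry the stem-loop, the annotated transcripts were searched on their own strand for a stem of 6 paired bases that starts with GG, around a loop of 4 bases that starts with TT. It was found in 39 of 58 clustered genes (67.2%) and in 1 of 17 variant genes, against 130 of 21901 protein-coding genes of the annotation (0.594%). Of the 19 clustered genes without it, 14 have a longest transcript of a length that is a multiple of 3, as a model of coding bases alone has, against 9 of the 39 with it. The forms found are shown with the stem in capitals and the loop in lower case. Part of their likeness is set by the search, which fixed the GG, the TT and the pairing. Of the 58 clustered genes, 48 lie on chromosome 13, so many of the genes with the same form are linked.
In 22 clustered genes: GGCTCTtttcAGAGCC
In 7 clustered genes: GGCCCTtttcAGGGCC
In 5 clustered genes: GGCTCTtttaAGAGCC
In 2 clustered genes: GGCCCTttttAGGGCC
In 2 clustered genes: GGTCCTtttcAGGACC
In 1 clustered gene: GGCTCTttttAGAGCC
In H2afx: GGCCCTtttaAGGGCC
H2afx, the H2A that is phosphorylated beside DNA breaks and is known to give both a stem-loop and a polyadenylated mRNA, was the variant gene with the structure, 822 bases before its annotated end.

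Promoters were taken from RefSeq (GRCm38.p6) for 52 clustered and 12 variant genes, as the 250 bases before the start. They were searched on both strands for CCAAT, for the octamer ATTTGCAT, and for TATAAA; the end of CCAAT can run into the octamer. CCAAT lay in 41 of the 52 clustered promoters (78.8%) and in 7 of 12 variant promoters (58.3%), against 33.8% of 32851 promoters. It lay in every H1, H2A and H2B promoter of the clustered set, in 7 of 9 H3 promoters, and in 3 of 12 H4 promoters (25%), which is below the share of all promoters. The octamer lay in 11 clustered promoters (21.2%), 7 of H2A and 4 of H2B genes, against 1.6% of all promoters. The promoters are not all separate, so sites can be counted more than once. Hist1h2aa and Hist1h2ba are counted for the same octamer, and Hist1h2ao and Hist1h2ap were matched to the same RefSeq gene. TATAAA lay in 26 clustered promoters (50%) against 12.4% of all. Among the variant promoters 1 held the octamer and TATAAA, that of H3f3b. A match is a description of the letters and not a binding site. Below are shown, with the matches in capitals, the promoters of genes whose levels are described in detail. That of Hist1h2ba lies between this gene and its divergent neighbour Hist1h2aa, whose own 250-base window (chr13:23934187-23934436) overlaps it.
Hist1h2ba (chr13:23934157-23934406, minus strand): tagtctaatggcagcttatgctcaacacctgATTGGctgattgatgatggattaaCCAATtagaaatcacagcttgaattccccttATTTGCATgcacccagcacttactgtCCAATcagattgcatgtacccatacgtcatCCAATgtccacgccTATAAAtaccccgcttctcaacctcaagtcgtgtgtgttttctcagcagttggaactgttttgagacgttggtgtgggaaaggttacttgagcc
H3f3b (chr11:116024505-116024754, minus strand): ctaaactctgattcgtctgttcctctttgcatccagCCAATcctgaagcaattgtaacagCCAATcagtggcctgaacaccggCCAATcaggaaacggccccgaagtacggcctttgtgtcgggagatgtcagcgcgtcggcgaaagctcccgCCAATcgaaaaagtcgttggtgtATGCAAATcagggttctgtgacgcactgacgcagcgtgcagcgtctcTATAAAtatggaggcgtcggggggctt
H1foo (chr6:115944681-115944930, plus strand): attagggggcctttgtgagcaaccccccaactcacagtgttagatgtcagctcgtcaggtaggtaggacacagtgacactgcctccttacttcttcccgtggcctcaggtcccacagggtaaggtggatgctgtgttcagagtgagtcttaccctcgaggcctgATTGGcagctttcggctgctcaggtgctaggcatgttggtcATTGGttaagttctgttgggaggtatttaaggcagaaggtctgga

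Summed over all families, variant genes supplied nearly all of the histone FPKM. Their share of the summed histone FPKM was 98.3% ± 0.175 (SD, n = 2) in MII oocytes, 97.1% ± 0.0702 in 2-cell control, 96.2% ± 0.412 in 2-cell Ago2 kd, 99.1% ± 0.211 in 4-cell control and 98.9% ± 0.295 in 4-cell Ago2 kd. The 4-cell control share lay above the 2-cell control share in both libraries, but 2 libraries against 2 cannot reach a two-sided exact permutation p below 0.333. In FPKM, the 58 clustered genes summed to 123 and 142 in the MII libraries, 46.4 and 51.7 in 2-cell control, 42.5 and 53.1 in 2-cell Ago2 kd, 12.2 and 9.69 in 4-cell control, and 18.7 and 25.9 in 4-cell Ago2 kd. The sums of the stages do not overlap and step down from oocyte to 2-cell to 4-cell. The size of the first step depends on the scale: as a share of the summed FPKM of each library, the clustered genes were at 0.0274% and 0.031% in MII oocytes, 0.0236% and 0.0254% in 2-cell control, and 0.00455% and 0.00402% in 4-cell control. The 17 variant genes summed to 7533 and 7511 FPKM in the MII libraries, 1533 and 1771 in 2-cell control, 995 and 1457 in 2-cell Ago2 kd, 1147 and 1272 in 4-cell control, and 1984 and 1894 in 4-cell Ago2 kd. These levels are relative to the library, and fewer transcripts of a gene and a larger pool of other RNA cannot be told apart. The families differed. In MII oocytes H2A was at 86.2 and 98.0 FPKM in clustered genes against 26.1 and 38.6 in variant genes. In the 2-cell and 4-cell libraries the variant H2A sum was the higher. No H2B or H4 gene has a variant name. Whether poly(A) RNA was selected is not given in the sources used here, and its part in the share was not tested.

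**Figure D1:**
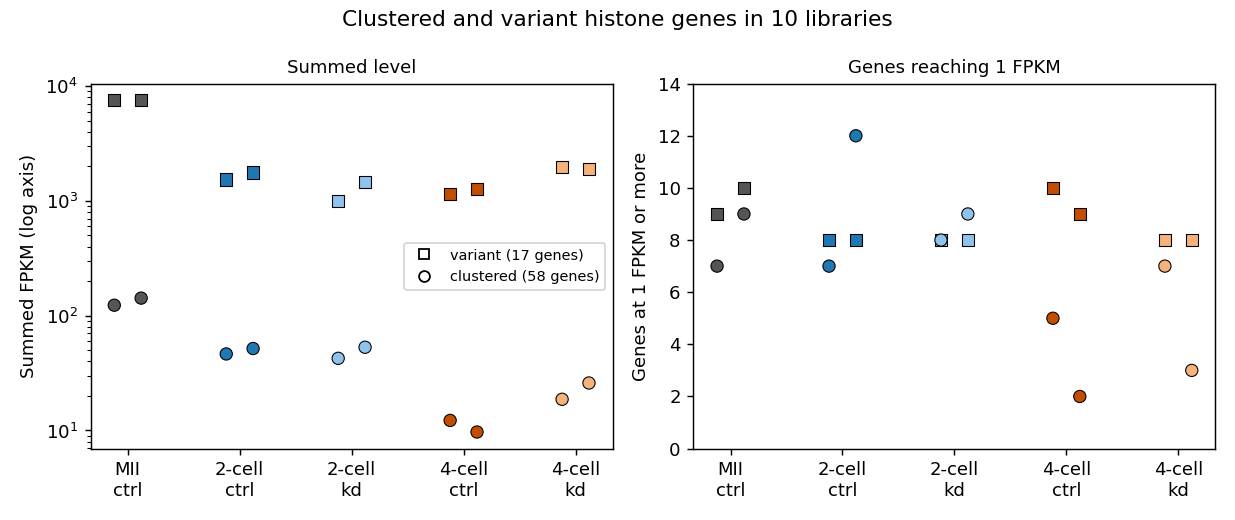
Left, summed FPKM (log axis) of the 58 clustered (circles) and 17 variant (squares) histone genes; right, the number of those genes at 1 FPKM or more. Each symbol is 1 library, 2 per group, coloured by group; the lowest variant sum is 995 FPKM, while the clustered sums step down to 12.2 and 9.69 in the 4-cell controls.

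The clustered sum rested on a pair of genes. Hist1h1a and Hist1h2aa made up 86% and 87.9% of it in the MII libraries, 65.2% and 49.5% in 2-cell control, and 3.96% and 1.98% in 4-cell control. The other 56 genes summed to 17.3 FPKM in each MII library, 16.2 and 26.1 in 2-cell control, 16.6 and 21.1 in 2-cell Ago2 kd, 11.7 and 9.5 in 4-cell control, and 16.8 and 20.1 in 4-cell Ago2 kd. In FPKM, then, the MII and 2-cell libraries overlapped without that pair and the 4-cell controls were lowest. As a share of the library the order was another: the 56 genes were at 0.00385% and 0.00376% in MII oocytes, 0.00824% and 0.0128% in 2-cell control, and 0.00437% and 0.00394% in 4-cell control, so that the MII libraries were lowest and the 2-cell controls highest among the controls. Few clustered genes were detected well: 2 to 12 of 58 reached 1 FPKM in a library (3.45% to 20.7%), against 22.8% to 27.2% of all 21437 genes, while 8 to 10 of the 17 variant genes did. The 3 members Hist1h2ah, Hist1h2bn and Hist1h4j, were listed at 0 in all 10 libraries.

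Among the clustered genes with a stem-loop, the level differed with the annotated 3′ end. Of the 39 genes with a stem-loop, 19 end within 100 bases of it, and 1 of these 19 (Hist1h2bk, 1.15 FPKM) reached 1 FPKM in any library, with a median of the highest value of 0.189 FPKM. Of the 20 whose annotated transcript runs on for more than 100 bases, 10 reached 1 FPKM, with a median of 1.03. They include Hist1h4d (770 bases after the stem-loop), Hist1h1c (840), Hist1h3f (365) and Hist3h2ba (169). The limit of 100 bases was set with the values known, and no test was made; at 50 bases the counts were 1 of 16 and 10 of 23, and at 200 bases 2 of 21 and 9 of 18. The 2 sets also differ in length, with median transcripts of 482 and 1410 bases, and in how much sequence they share with other genes. Each of the 19 genes that end within 100 bases shares at least 39.5% (Hist1h4f) of its 50-base words. Most of the 20 that run on share less, the exceptions being Hist1h2ae, Hist1h3e, Hist1h3f, Hist2h3c1 and Hist2h3c2. The parts of length and of shared sequence in the difference between the 2 sets were not tested. The 19 clustered genes without a stem-loop in the annotation do not follow the order of length: 8 reached 1 FPKM, among them Hist1h2aa and Hist1h1a, the highest of the clustered genes, with a median of the highest value of 0.479 FPKM and a median transcript of 393 bases. Whether the libraries selected poly(A) RNA is not given in the sources used here, and its part in these levels was not tested.

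**Figure D2:**
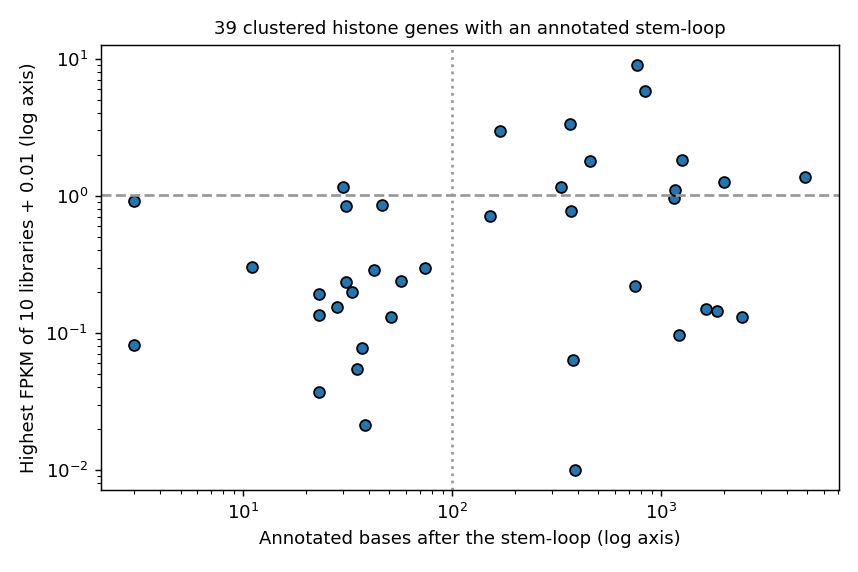
Annotated bases after the stem-loop (x, log axis) against the highest FPKM of the 10 libraries, plus 0.01 (y, log axis), for the 39 clustered genes with a stem-loop; 1 point is 1 gene, the dotted line marks 100 bases and the dashed line 1 FPKM. Left of the dotted line 1 of 19 genes reaches 1 FPKM, right of it 10 of 20.

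Differences between groups were tested on log2(FPKM + 1) with limma over the 8726 genes at 1 FPKM or more in at least 2 libraries, with p-values adjusted over all of these (Benjamini-Hochberg). The filter kept 14 clustered and 10 variant genes, and a gene kept because it is high in 1 group had to differ from the others. Counts and medians over the 24 are therefore descriptions, as are the p-values of genes kept through 1 stage. Nothing in the labels says that the 2 libraries of a group came from separate pools of animals, so the p-values measure the spread between libraries, which may be technical. Differences are given on the log2(FPKM + 1) scale, which understates the change of low genes.

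From MII oocyte to 2-cell control, 2 clustered genes rose (Hist1h2ba and Hist1h4a), 1 clustered gene fell (Hist1h2aa) and 1 variant gene fell (H1foo). Of all genes tested, 6.54% rose and 14.2% fell. From 2-cell to 4-cell control, 8 clustered genes fell and none rose, while among variants H2afx and H3f3a rose and H1foo and H3f3b fell. Here 21.1% of all genes tested rose and 17.5% fell. The median difference from 2-cell to 4-cell control was -0.93 for the 14 clustered genes, 0.72 for the 10 variants and 0.24 for all genes tested, and scaling the libraries to the same median brought that of all genes to 0.01 and those of the classes to -1.06 and 0.46. Of the clustered genes, Hist1h2al, Hist1h2ba and Hist1h4a reached 1 FPKM in 2-cell libraries alone. Others, such as Hist1h2aa, Hist1h3f, Hist1h4c and Hist3h2ba, did so in MII or 2-cell libraries alone. A fall of such genes to the 4-cell stage is partly built into the filter, so the medians describe the genes kept. From MII to 2-cell the median of the 10 variants changed sign with the scaling, from -0.27 to 0.24. The count of 8 clustered genes was 4 without 2-cell control replicate 2, without 4-cell control replicate 1 or without 4-cell control replicate 2, and without MII replicate 1, MII replicate 2 or 2-cell control replicate 2 the 3 clustered calls from MII to 2-cell became 1.

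Among linker histones, H1foo, the oocyte linker histone, held the highest level of any member. It stood at 5458 and 5754 FPKM in the MII libraries, 71.1 and 96.5 in 2-cell control, 229 and 97.6 in 2-cell Ago2 kd, and 6.77 and 0.9998 in 4-cell control, and was listed at 0 in both 4-cell Ago2 kd libraries. No control stage overlapped the next. It fell by 6.06 (SE 0.68, adjusted p = 0.00144) from MII to 2-cell control and fell by 4.41 (SE 0.68, adjusted p = 0.00285) from 2-cell to 4-cell control. H1foo was 98.7% and 98.6% of the summed H1 FPKM in the MII libraries and 28.3% and 1.73% in 4-cell control.

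Hist1h1a, which encodes the somatic linker histone H1.1, followed another course. It was at 20.6 and 29.0 FPKM in MII oocytes, 20.7 and 20.0 in 2-cell control and 19.0 and 20.7 in 2-cell Ago2 kd. In the 4-cell controls it was at 0.485 and 0.158 FPKM, and in 4-cell Ago2 kd at 1.77 and 5.77. In FPKM the oocytes and 2-cell embryos overlapped, whereas as a share of the library Hist1h1a was at 0.00458% and 0.00633% in MII oocytes and 0.0105% and 0.0098% in 2-cell control. Every 4-cell library was lower on both scales, and from 2-cell to 4-cell control it fell by 4.02 (SE 0.49, adjusted p = 0.00111). H1f0, the linker histone of differentiated and resting cells, was at 43.9 and 51.0 FPKM in MII oocytes, 11.3 and 11.7 in 2-cell control, 72.3 and 30.6 in 2-cell Ago2 kd, 11.99 and 53.6 in 4-cell control, and 10.1 and 5.68 in 4-cell Ago2 kd. Its replicates lay far apart in 2-cell Ago2 kd and in 4-cell control, and no difference passed the test. Hist1h1c was at 5.81 and 2.31 FPKM in MII oocytes and at 1.84 or less elsewhere, and Hist1h1b was listed at 0 in both MII libraries and reached 3.02 and 3.75 FPKM in 4-cell Ago2 kd; neither passed the test in any comparison. H1fx and the testis gene H1fnt stayed at 0.137 FPKM or less.

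**Figure D3:**
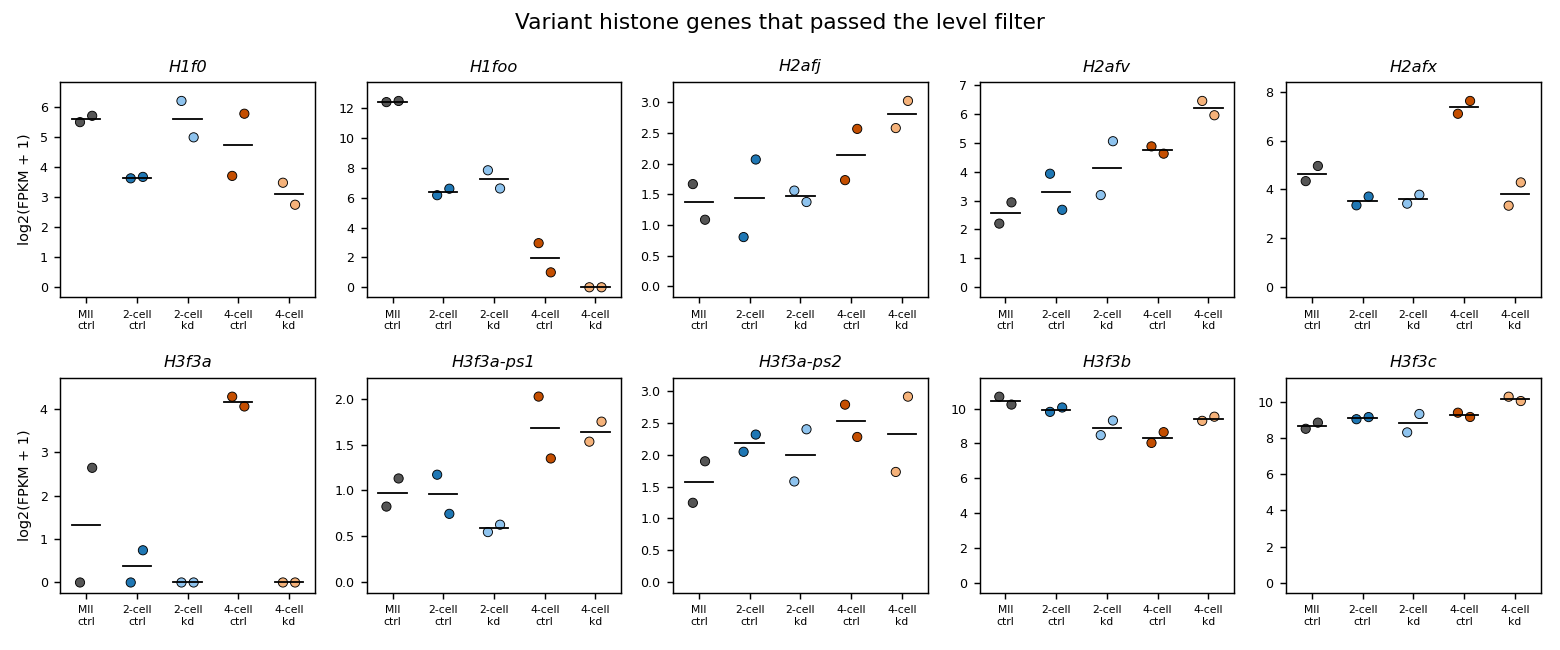
Level of the 10 variant histone genes that passed the level filter, as log2(FPKM + 1), by group; each point is 1 library, the bar is the mean of 2, and each panel has its own y axis. H1foo steps down at each stage, and H2afx and H3f3a are high in the 4-cell controls.

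The H2A and H2B genes Hist1h2aa and Hist1h2ba encode TH2A and TH2B, variants of testis and oocyte that share a divergent promoter although their names are clustered ones. They lie head to head on chromosome 13 (23934462 to 23934851, plus strand, and 23933773 to 23934156, minus strand). Hist1h2aa was at 85.4 and 96.0 FPKM in MII oocytes, 9.58 and 5.65 in 2-cell control, 6.86 and 11.2 in 2-cell Ago2 kd, 0 and 0.0336 in 4-cell control, and 0.161 and 0 in 4-cell Ago2 kd. It fell by 3.45 (SE 0.41, adjusted p = 0.00179) from MII to 2-cell control and then fell by 3.05 (SE 0.41, adjusted p = 0.00161). Hist1h2ba was at 0.377 and 0.637 FPKM in MII oocytes, 1.86 and 4.03 in 2-cell control, 1.08 and 1.17 in 2-cell Ago2 kd, 0.172 and 0 in 4-cell control, and 0.179 and 0.184 in 4-cell Ago2 kd. It rose by 1.34 (SE 0.32, adjusted p = 0.0261) and then fell by 1.81 (SE 0.32, adjusted p = 0.00494). Hist1h2ba reached 1 FPKM in 2-cell libraries alone and so passed the filter only through them, which makes these p-values descriptions. Its rise was not called with a pseudocount of 0.1, without the filter or with the compared groups alone. By level, oocytes were the highest group for Hist1h2aa and the 2-cell controls for Hist1h2ba. Of the 50-base words in their transcripts, 23.8% and 38.2% also occur in other genes.

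The other H2A genes with clustered names were low. Hist1h2al, annotated as a processed pseudogene, was at 0.141 and 0.314 FPKM in MII oocytes and 1.22 and 2.11 in 2-cell control, and was listed at 0 in all 4 4-cell libraries (adjusted p = 0.0143 from 2-cell to 4-cell control). Hist1h2ac reached 1.26 FPKM in 1 MII library. Among H2B genes, Hist3h2ba was at 2.50 and 2.29 FPKM in MII oocytes, 1.13 and 1.46 in 2-cell control, and 0.165 and 0 in 4-cell control, and it fell by 1.09 (SE 0.32, adjusted p = 0.0343) from 2-cell to 4-cell control.

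Of the variant H2A genes, H2afx alone passed a test, and it moved the other way. It was at 19.3 and 30.1 FPKM in MII oocytes, 9.19 and 12.1 in 2-cell control, 9.69 and 12.8 in 2-cell Ago2 kd, 136 and 196 in 4-cell control, and 9.09 and 18.5 in 4-cell Ago2 kd. The 4-cell controls stood alone, above the other 8 libraries. H2afx rose by 3.83 (SE 0.46, adjusted p = 0.00102) from 2-cell to 4-cell control. It overlaps the gene model Gm44335, and 9.66% of its 50-base words occur in other genes. H2afv, an H2A.Z isoform, was at 3.60 and 6.67 FPKM in MII oocytes, 14.3 and 5.41 in 2-cell control, 8.14 and 32.4 in 2-cell Ago2 kd, 28.5 and 23.8 in 4-cell control and 87.1 and 61.4 in 4-cell Ago2 kd. The 4-cell Ago2 kd libraries were the highest, and no comparison passed the test. H2afj, whose product is H2A.J, lay between 0.745 and 7.13 FPKM without a call. H2afz, which encodes the main H2A.Z, was listed at 0 in 9 libraries and at 0.0174 FPKM in the other. Its gene has 7 annotated transcripts, and 35.4% of its 50-base words occur in other genes. H2afy, the macroH2A1 gene, stayed at or below 1.05 FPKM, the testis gene H2afb1 was above 0 in 1 library (0.0923 FPKM), and the pseudogene H2afy3 reached 0.206 FPKM.

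**Figure D4:**
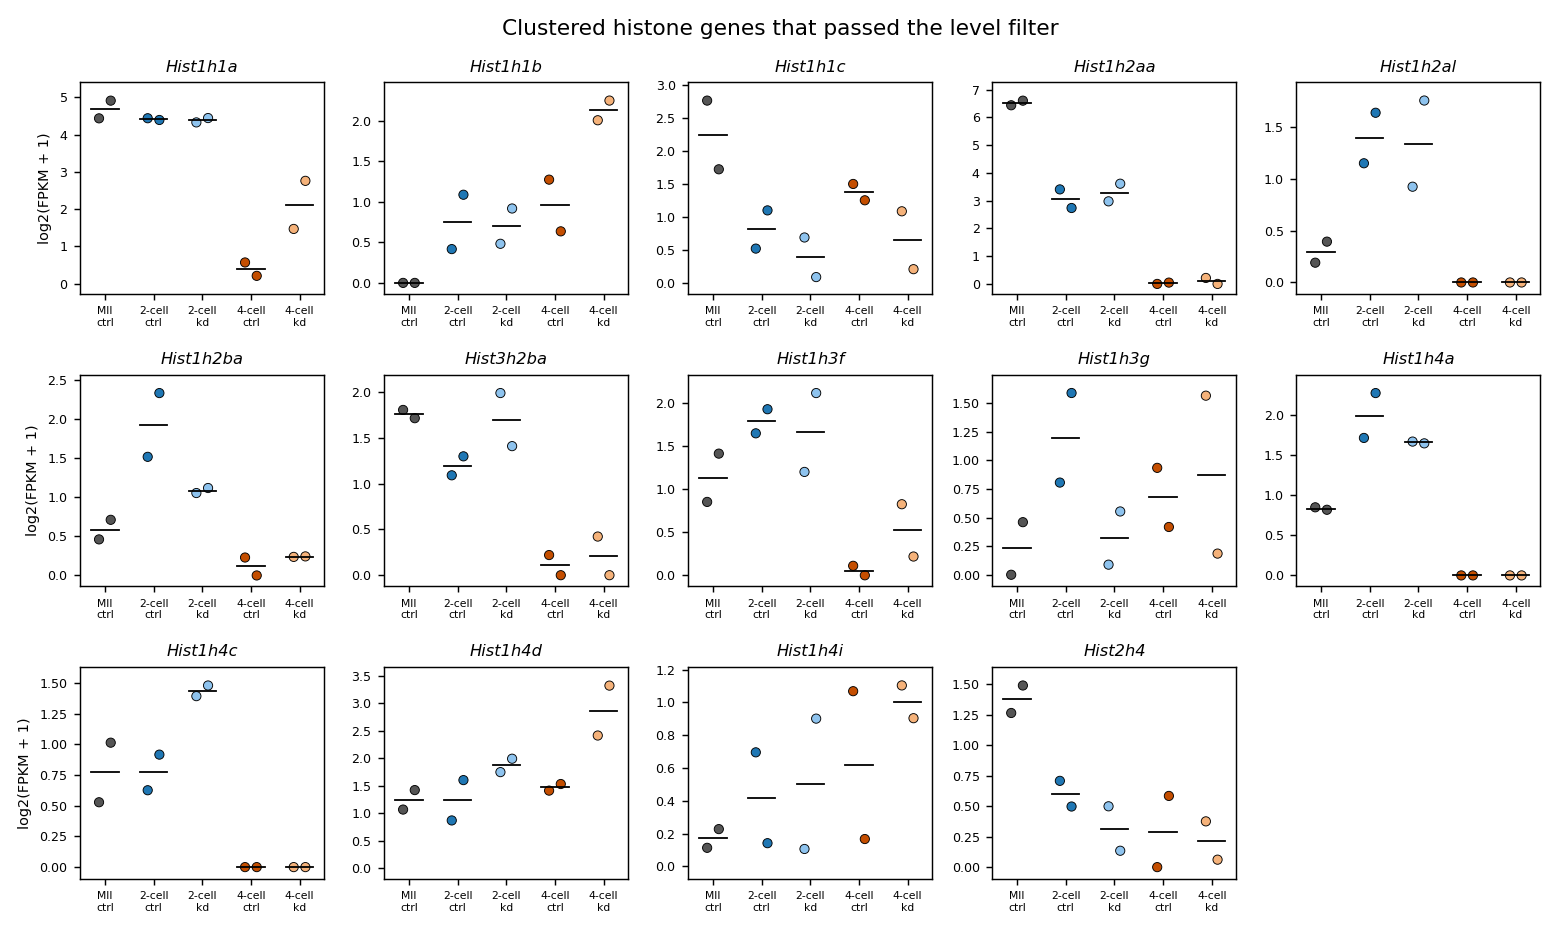
Level of the 14 clustered histone genes that passed the level filter, as log2(FPKM + 1), by group; each point is 1 library, the bar is the mean of 2, and each panel has its own y axis. Hist1h1a overlaps in FPKM between oocyte and 2-cell and is low in the 4-cell controls, whereas Hist1h2aa steps down at both stages.

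For H3, the clustered genes, which encode the H3 deposited in S phase, were a small part: the variant names made up 99.6% or more of the summed H3 FPKM in every library. H3f3b, 1 of the pair of genes for the protein H3.3, was at 1640 and 1199 FPKM in MII oocytes, 897 and 1068 in 2-cell control, 355 and 636 in 2-cell Ago2 kd, 261 and 400 in 4-cell control, and 627 and 740 in 4-cell Ago2 kd. In FPKM each control stage was lower than the one before in both libraries. The first step did not pass the test (difference -0.52, adjusted p = 0.374) and turned with the scale, since as a share of the library H3f3b was at 0.364% and 0.261% in MII oocytes and 0.457% and 0.524% in 2-cell control. From 2-cell to 4-cell control it fell by 1.60 (SE 0.35, adjusted p = 0.0112). H3f3a, the other H3.3 gene, was at 18.4 and 15.6 FPKM in 4-cell control (adjusted p = 0.0093 against 2-cell control). Elsewhere it was at 5.23 FPKM in MII replicate 2 and 0.672 in 2-cell control replicate 2, and was listed at 0 in the other 6 libraries. H3f3a would not have passed the filter without the 4-cell controls, so its rise is partly built in and its p-values are descriptions. 

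H3f3c, a processed copy of 411 bases on chromosome 2 (119665626 to 119666036, minus strand), stood far above H3f3a. It was at 363 and 460 FPKM in MII oocytes, 524 and 569 in 2-cell control, 316 and 640 in 2-cell Ago2 kd, 672 and 571 in 4-cell control and 1241 and 1051 in 4-cell Ago2 kd, without a call. An ungapped comparison found 407 of its 411 bases (99%) in H3f3a transcripts and 314 (76.4%) in those of H3f3b, so reads of H3f3a and of its copies cannot be told apart over most of this length. The copies H3f3a-ps1 (98.3% identical to H3f3a) and H3f3a-ps2 (98.8%) stayed at or below 6.54 FPKM, without a call. The sum of H3f3a and its 3 copies was 700 and 592 FPKM in 4-cell control and 528 and 574 in 2-cell control, so that the 18.4 and 15.6 FPKM of H3f3a are a small part of it. H3f3aos, antisense to H3f3a, reached 0.572 FPKM.

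Among clustered H3 genes, Hist1h3f was at 0.808 and 1.67 FPKM in MII oocytes, 2.14 and 2.82 in 2-cell control, 1.30 and 3.35 in 2-cell Ago2 kd, 0.0796 and 0 in 4-cell control, and 0.775 and 0.164 in 4-cell Ago2 kd. It fell by 1.74 (SE 0.42, adjusted p = 0.0169) from 2-cell to 4-cell. Hist1h3g reached 2.01 FPKM and Hist1h3e 0.768 FPKM in their highest library. Among H4 genes, Hist1h4a was at 0.799 and 0.761 FPKM in MII oocytes, 2.27 and 3.82 in 2-cell control and 2.17 and 2.12 in 2-cell Ago2 kd. It was listed at 0 in all 4 4-cell libraries. It rose by 1.16 (SE 0.27, adjusted p = 0.0247) from MII to 2-cell and fell from 2-cell to 4-cell control (adjusted p = 0.00169). Hist1h4a also passed the filter only through 2-cell libraries. Its rise was not called without the filter or with the compared groups alone. Hist1h4c was also listed at 0 in every 4-cell library (adjusted p = 0.0414 from 2-cell to 4-cell control). Hist1h4d, in contrast, was at 1.099 and 1.68 FPKM in MII oocytes, 0.830 and 2.04 in 2-cell control, 2.37 and 2.98 in 2-cell Ago2 kd, 1.67 and 1.90 in 4-cell control and 4.34 and 9.01 in 4-cell Ago2 kd, without a call. It was the clustered gene at 1 FPKM or more in the most libraries, 9 of 10.

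Genes share sequence unevenly within the clusters. In the 44 clustered genes that did not pass the filter, the median share of 50-base words found in other genes was 62%, and in the 14 that passed it was 23%. How the authors' program divided reads among such copies bears on every clustered value, and its part was not tested. The genes named in detail span this range: Hist1h1a and Hist1h1b share no such word, Hist1h4d 10.2%, Hist3h2ba 22.1%, Hist1h4a 40.4%, Hist1h3f 49.3% and Hist1h2al 67.6%.

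To ask whether Ago2 kd changed these levels, kd and control embryos were compared at each stage. At the 2-cell stage, limma called none of the 24 histone genes at adjusted p below 0.05, while 0.332% of all genes tested rose and 0.218% fell. At an unadjusted p below 0.05, 4 were counted: Hist1h4c and H1f0 higher, and Hist1h2ba and H3f3b lower (2.96% of all genes higher and 3% lower). H3f3b was at 355 and 636 FPKM in kd against 897 and 1068 in control, which did not overlap (difference -1.04, SE 0.35, adjusted p = 0.595). H1foo was at 229 and 97.6 FPKM in kd against 71.1 and 96.5 in control (difference 0.84, SE 0.68, adjusted p = 1), with the lower kd library just above the higher control.

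At the 4-cell stage, 2 histone genes fell in Ago2 kd, both variants, and none rose; of all genes tested, 2.77% fell and 1.23% rose. H2afx was at 9.09 and 18.5 FPKM in kd against 136 and 196 in control, a difference of -3.55 (SE 0.46, adjusted p = 0.00721). Its kd level lay within the range of the oocyte and 2-cell libraries, 9.19 to 30.1 FPKM, or just below it. H3f3a was listed at 0 in both kd libraries against 18.4 and 15.6 FPKM in control (adjusted p = 0.0361). It passed the filter only with the 4-cell controls counted, so its fall under kd is partly built in and this p-value is a description. Over H3f3a and its 3 copies together the order was the opposite, 1245 and 1060 FPKM in kd against 700 and 592 in control. Fitted to the 4-cell libraries alone, limma called no gene at all. With the replicate number as a block H2afx was the 1 histone gene called, and the call of H3f3a was also lost with any 1 of the 2-cell or 4-cell libraries left out, which left 1 call, or 2 in the case of 4-cell Ago2 kd replicate 1.

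No clustered gene passed the test at the 4-cell stage. At an unadjusted p below 0.05, 5 histone genes were higher in kd (7.37% of all genes) and 3 lower (8.07%). The higher ones were Hist1h1a, Hist1h1b, Hist1h4d, H3f3b and H3f3c, and the lower ones H2afx, H3f3a and H1foo. Hist1h1a was at 1.77 and 5.77 FPKM in kd against 0.485 and 0.158 in control (difference 1.72, SE 0.49, adjusted p = 0.139), both below every 2-cell value. H3f3b was at 627 and 740 FPKM in kd against 261 and 400 in control (difference 1.07, SE 0.35, adjusted p = 0.184). H1foo was listed at 0 in both kd libraries against 6.77 and 0.9998 FPKM in control (adjusted p = 0.213). In the same libraries the 10 oocyte genes summed to 42.0 and 24.7 FPKM in kd against 11.6 and 6.31 in control. Of the 10, 4 and 5 were at 0 in kd against 5 and 4 in control. Zp3 gave 23.5 FPKM of the kd replicate 1 sum and was at 0 in kd replicate 2 and both controls. Oosp1 was at 10.35 and 16.98 FPKM in kd against 5.33 and 3.17 in control. Mos and Ooep were also higher in both kd libraries. Gdf9 (2.98 and 3.96 FPKM against 5.40 and 1.13) and Nlrp5 overlapped, and Zp2 was at 0 in both kd libraries. Zp1, Bmp15 and Zar1 were at 0 in all 4. The 5 genes of 2-cell embryos summed to 180 and 82.3 FPKM against 72.2 and 147, with Zscan4d at 0 in all 4; 1 of them, Tcstv3, was higher in kd (13.7 and 13.5 against 0.541 and 0.812 FPKM, adjusted p = 0.00485), a gene whose 2-cell kd values are among the equal ones. The part of embryo stage in the 4-cell differences was not tested.

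**Figure D5:**
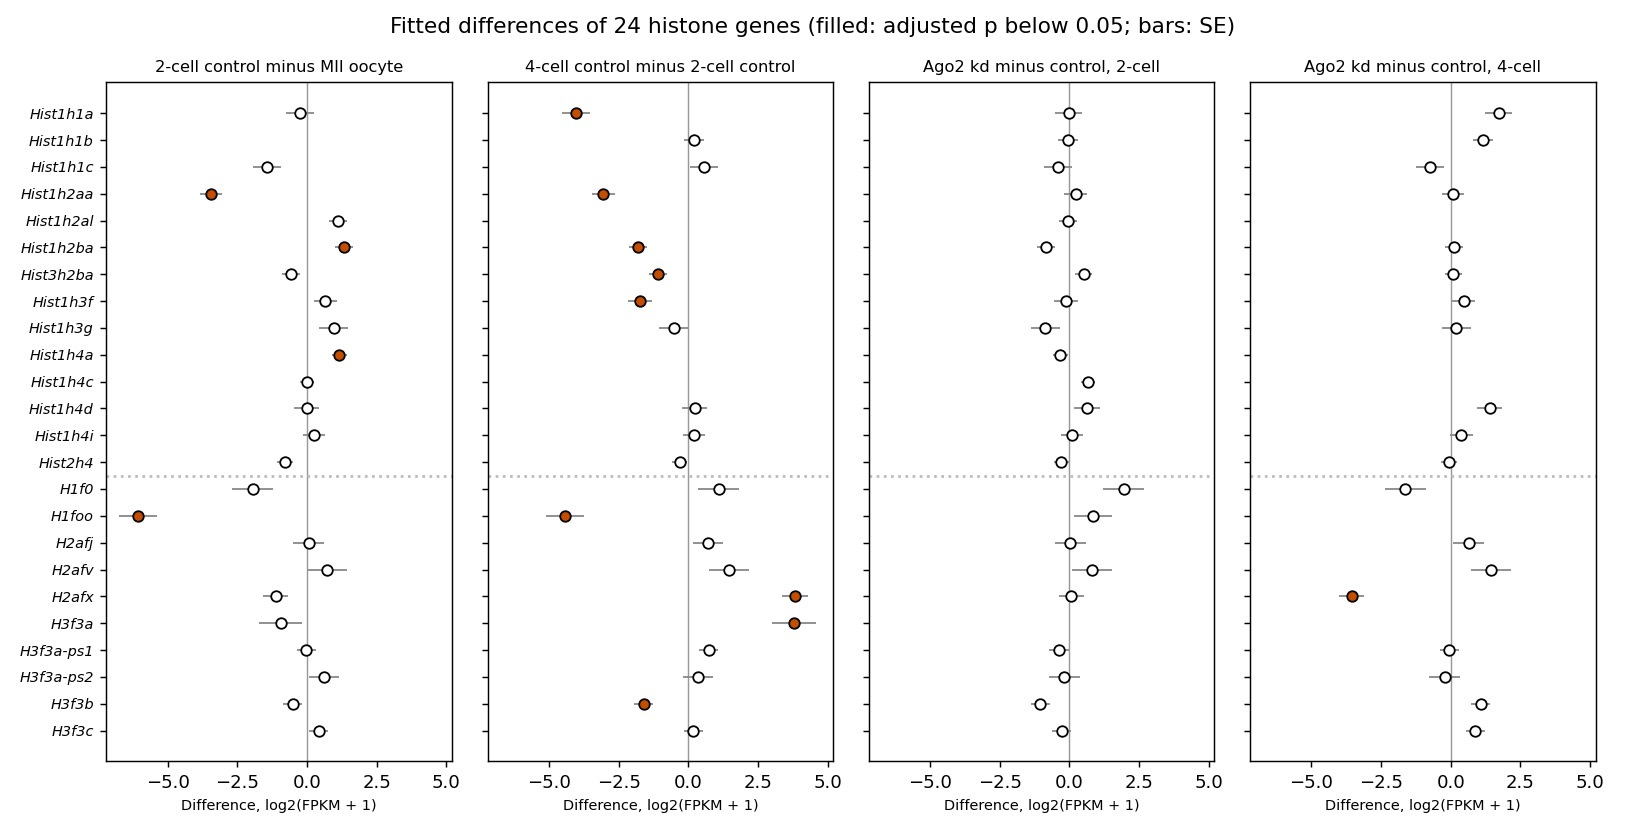
Fitted differences on the log2(FPKM + 1) scale with their SE for the 24 histone genes that passed the level filter (14 clustered above the dotted line, 10 variant below), in 4 comparisons of 2 libraries against 2; filled points have an adjusted p below 0.05, and a gene listed at 0 in both libraries of a group has no point. All clustered calls drawn from 2-cell to 4-cell control lie at negative values, and Hist1h2al, Hist1h4a and Hist1h4c, at 0 in both 4-cell controls, have no point there. H2afx is the filled point under Ago2 kd at the 4-cell stage.

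The kd effect was compared between stages in the same fit. It differed for 1 histone gene, H2afx (2.28% of all genes differed in either direction): the 4-cell effect minus the 2-cell effect was -3.62 (SE 0.65, adjusted p = 0.0408). At the 2-cell stage its kd libraries were at 9.69 and 12.8 FPKM against 9.19 and 12.1 in control. The adjusted p lay above 0.05 when any 1 library other than 4-cell Ago2 kd replicate 2 was left out, with differences of -3.14 to -3.88. The 4-cell and stage comparisons share the 4-cell controls, whose 136 and 196 FPKM enter both the rise from 2-cell to 4-cell and the fall under kd.

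Genes that act on clustered histone mRNA were read from 2 lists. Of 19 genes for the processing and turnover of the 3′ end, 12 were tested. From MII to 2-cell control none rose and 4 fell (Lsm11, Eri1, Mif4gd and Ncbp2), and from 2-cell to 4-cell control 4 rose (Lsm11, Eri1, Ncbp1 and Ncbp2) and 3 fell (Slbp, Lsm10 and Lsm1). Beside these counts, 6.54% of all genes tested rose and 14.2% fell at the first step, and 21.1% rose and 17.5% fell at the second. The medians of the 12 were -1.7 and 1.34, against -0.06 and 0.24 for all genes tested. Both steps use the same 2-cell control values, which are at or near 0 for Lsm11 and Ncbp2 and in 1 library for Eri1. The opposite counts and medians are therefore not independent. Ncbp1 was listed at 0 in every MII and 2-cell library and passed the filter only through 4-cell libraries, so its rise is partly built in. Slbp, which binds the stem-loop, was at 1470 and 2861 FPKM in MII oocytes, 777 and 292 in 2-cell control, 533 and 1112 in 2-cell Ago2 kd, 75.8 and 99.8 in 4-cell control and 63.2 and 23.3 in 4-cell Ago2 kd (adjusted p = 0.0299 from 2-cell to 4-cell control). In FPKM the control stages stepped down in the order of the clustered sum, but as a share of the library the MII libraries (0.327% and 0.623%) and the 2-cell controls (0.396% and 0.144%) overlapped. Lsm10, a subunit of the U7 snRNP that cuts the pre-mRNA, was at 62.4 and 46.6 FPKM in 2-cell control and at 2.33 and 1.20 in 4-cell control. Ncbp2, of the cap-binding complex, was listed at 0 in all 4 2-cell libraries and lay between 30.0 and 51.6 FPKM in the others.

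Of 13 genes of histone gene transcription and entry into S phase, 9 were tested. From MII to 2-cell control Coil rose and Pou2f1 and Dbf4 fell, and from 2-cell to 4-cell control Coil rose and E2f2 and Ccne2 fell. These are 1 and 2 of 9 at each step, against the shares of all genes just given, and the medians of the 9 were 0 and 1.03. Coil, the scaffold of Cajal bodies, was at 0 and 0.0708 FPKM in MII oocytes, 4.01 and 6.87 in 2-cell control and 19.6 and 30.2 in 4-cell control. Ccne2, a cyclin of S-phase entry, was at 97.5 and 82.5 FPKM in 2-cell control and at 0.0604 and 0 in 4-cell control. Neither list had a gene called under Ago2 kd at either stage. Of 7 histone variants whose names the rule does not cover, 1 was tested: Cenpa, the H3 of centromeres, was at 38.9 and 50.3 FPKM in the 2-cell controls, 0.205 and 46.9 in 2-cell Ago2 kd, 27.5 and 65.7 in 4-cell control and 115 and 175 in 4-cell Ago2 kd, without a call.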

How the data were processed

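RNA-seq levels in 10 mouse libraries (5 groups of 2) were analysed. Per the labels and the methods of the study, reads were checked with FastQC, trimmed with Trim Galore and aligned to GRCm38.p6 with HISAT2 (2.1.0 in the submitters' processing notes, which also name CASAVA 1.4 and mm10). The authors deposited FPKM per gene name, made with StringTie; how several transcripts or genes were reduced to 1 value per name, and whether poly(A) RNA or strand was selected, is not given in the sources used here. Total reads are not given either.

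From these values log2(FPKM + 1) was fitted with limma 3.58.1 (R 4.3.3; trended empirical Bayes, 5 residual degrees of freedom, two-sided) over genes at 1 FPKM or more in at least 2 libraries. The study tests counts; FPKM do not allow a count test. Calls are at a Benjamini-Hochberg adjusted p below 0.05. The fit was tested on simulated data. Named were every variant gene, the 3 highest clustered genes of each family by mean FPKM, and the 3 largest rises and falls among clustered calls per comparison, and of the other lists their highest or called genes; Hist1h2ah, Hist1h2bn, Hist1h4j, Tcstv1 and Zscan4d were named after their values were seen. The members and gene lists were chosen with earlier results of these data known. Coordinates and transcripts are from GENCODE M21 (GRCm38), promoters from RefSeq (GRCm38.p6). Alternatives were a pseudocount of 0.1, no filter, median scaling, quantile normalization, a replicate block, the compared groups alone, each library left out in turn, and, added after seeing the data, leaving out genes of equal value in both 2-cell Ago2 kd libraries and giving levels as a share of the summed FPKM of the library.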

Additional observations from a re-analysis of the deposited data

Results flagged for a closer look

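H2afx had a different response to Ago2 kd at the 2 stages. The 4-cell effect minus the 2-cell effect was -3.62 on the log2(FPKM + 1) scale (SE 0.65, limma adjusted p = 0.0408 over 8726 genes), with 9.09 and 18.5 FPKM in 4-cell kd against 136 and 196 in 4-cell control, and 9.69 and 12.8 in 2-cell kd against 9.19 and 12.1 in 2-cell control. Both 4-cell kd libraries lay below both controls, and the 2-cell groups overlapped. The adjusted p lay above 0.05 without a filter on low values, in the fit to the 4 groups compared, and with any library left out other than 4-cell Ago2 kd replicate 2, with differences of -3.14 to -3.88. The difference rests on the level in the 4-cell controls.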

How the results depend on the processing

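None of the 19 called differences of single genes changed sign under the alternatives, which were not run for differences that were not called: of 323 values, 265 kept their side of the threshold and 58 lost it. From MII to 2-cell control, 3 clustered and 1 variant genes were called; the clustered count was 1 without the filter and 1 with the compared groups alone, and the variant count was 2 with quantile normalization and 2 with the compared groups alone. Leaving out 1 library gave 1 to 4 clustered and 1 to 2 variant genes. From 2-cell to 4-cell control the counts of 8 and 4 became 4 to 8 and 3 to 4. Under Ago2 kd at the 2-cell stage the count was 0 in every fit (0 to 0 with 1 library left out). At the 4-cell stage the count of 2 was 1 with the replicate block and 0 with the compared groups alone, where limma called none of all genes, and 1 to 2 with a library left out; the call of H3f3a was lost under most settings, that of H2afx only with the compared groups alone. The difference between stages, 1 gene, was 0 without the filter. With the compared groups alone 1 histone gene was called, but it was not H2afx. The H2afx call was lost with any library left out other than 4-cell Ago2 kd replicate 2, and in some of these fits another histone gene was called instead. The H2afx difference lay between -3.145 and -4.098 with a library left out. The replicate numbers do not pair the libraries: deviations of same-numbered libraries correlated at -0.0931 to 0.0924 between groups. The block moved no other count by over 1.5 times. Leaving out Hist1h2aa and H1foo moved the variant share from 98.3% to 97.8% in MII oocytes and from 97.1% to 97.4% in 2-cell control; with 1 library left out it was 98.1% to 98.4%, 97.1% to 97.2%, 95.9% to 96.5%, 98.9% to 99.2% and 98.7% to 99.1% in MII, 2-cell control, 2-cell kd, 4-cell control and 4-cell kd. With 2 libraries a group and no read depth, small differences at low FPKM could not be resolved.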
